A study of Mus musculus with 6 samples.

Results

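Laminins are the trimers, each built of an α, a β and a γ chain, that form the sheet of the basement membrane around adipocytes and other cells. Integrins are the receptors, each a pair of an α and a β subunit, with which cells hold on to laminins, collagens, fibronectin and related ligands. The genes described here are all those named as laminin chains (*Lama*, *Lamb*, *Lamc*) or integrin subunits (*Itga*, *Itgb*) in the tables, 37 of 56884 gene IDs. Of these, 19 reached the minimum of 0.5 TPM in 3 or more of the 6 libraries and were tested, among 15426 genes that passed it. TPM is a measure of transcript abundance corrected for transcript length and scaled to the same total in each library.

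RNA was sequenced at day 2 of beige adipocyte differentiation from an immortalized mouse cell line of the stromal vascular fraction (SVF), the precursor-holding fraction of fat, of subcutaneous white adipose tissue (scWAT). One group stably overexpressed HA-tagged PPARγ2 K382Q, in which glutamine resembles acetylated lysine, and the other PPARγ2 K382R, in which arginine resembles deacetylated lysine, with 3 biological replicates of each. Both mutants had been delivered in a retroviral vector under puromycin selection, on top of the endogenous *Pparg*, and both groups were in induction medium with isobutylmethylxanthine, indomethacin, dexamethasone, insulin, T3 and rosiglitazone. Neither cells without a mutant nor undifferentiated cells were analysed here, and the labels do not say whether the replicates came from separate transductions, so p-values measure the spread between these cultures.

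The aligned length, which coverage divided by FPKM gives, was 5.95 to 7.5 Gb per library of K382Q cells and 6.53 to 8.15 Gb per library of K382R cells. *Pparg*, whose TPM includes the transgene, was at 1333, 1164 and 1104 TPM in K382Q cells and 1590, 1632 and 1612 TPM in K382R cells. That is a log2 fold change of -0.43 (SE 0.0638, adjusted p = 0.000977, limma), and its part in the results was not tested. All 8 adipocyte markers passed the minimum, and they were split, with 3 higher and 4 lower in K382Q cells, where 11.1% of all genes were higher and 36.9% lower. Median-ratio scaling gave 4 higher and 3 lower, against 19.9% and 20.4% of all genes. Quantile normalization gave 2 higher and 4 lower, against 19.1% and 21.0%. *Cfd* (log2 fold change 1.23), *Cd36* (0.43) and *Fabp4* (0.34) were higher, and *Adipoq* (-1.28), *Cebpa* (-0.81), *Pparg* and *Lpl* (-0.19) were lower. Their summed TPM, most of it *Fabp4*, was 52970 to 56590 in K382Q cells and 43940 to 45090 in K382R cells. All 6 tested markers of precursors and fibroblasts of 9 listed were lower in K382Q cells, as were 36.9% of all tested genes, with sums of 570.3 to 614.7 against 940.1 to 978.8 TPM and *Dpp4* at 0 in every library. In RNA from whole cultures, fewer cells of a type and less RNA per cell cannot be told apart. The part of these marker differences in the results below was not tested.

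The upstream sequences of 4 members that are described in depth are given as examples. They are the 250 bases before the RefSeq start site on the strand of the gene, from build GRCm38.p6, at chr2:180225860-180226109 (minus strand) for *Lama5*, chr12:31265043-31265292 (plus strand) for *Lamb1*, chr15:103366792-103367041 (minus strand) for *Itga5* and chr8:128685404-128685653 (plus strand) for *Itgb1*. Capitals mark the GC box (GGGCGG on either strand), the short motif that Sp1-type factors bind, and in *Itgb1* also the TEAD motif GGAATG, which precedes the start site.
Lama5: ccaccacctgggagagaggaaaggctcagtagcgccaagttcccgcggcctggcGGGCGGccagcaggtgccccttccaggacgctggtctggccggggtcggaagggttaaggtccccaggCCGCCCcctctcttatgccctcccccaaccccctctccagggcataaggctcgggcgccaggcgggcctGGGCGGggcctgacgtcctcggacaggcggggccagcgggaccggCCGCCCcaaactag
Lamb1: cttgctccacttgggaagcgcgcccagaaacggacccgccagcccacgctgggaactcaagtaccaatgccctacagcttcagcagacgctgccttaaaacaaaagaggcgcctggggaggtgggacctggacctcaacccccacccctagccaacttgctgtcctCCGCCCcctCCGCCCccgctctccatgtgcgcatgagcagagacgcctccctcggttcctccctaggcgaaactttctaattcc
Itga5: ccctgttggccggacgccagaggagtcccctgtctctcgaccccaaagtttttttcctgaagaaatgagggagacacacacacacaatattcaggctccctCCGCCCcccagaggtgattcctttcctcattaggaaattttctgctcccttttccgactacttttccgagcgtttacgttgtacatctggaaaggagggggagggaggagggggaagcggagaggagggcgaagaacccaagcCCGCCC
Itgb1: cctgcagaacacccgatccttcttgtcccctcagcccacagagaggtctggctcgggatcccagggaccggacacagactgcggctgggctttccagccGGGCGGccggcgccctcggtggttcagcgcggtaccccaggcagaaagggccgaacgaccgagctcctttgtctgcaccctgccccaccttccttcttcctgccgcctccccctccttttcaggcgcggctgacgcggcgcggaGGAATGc
The RefSeq table held 14 promoters of 12 tested members, and *Lama4*, *Lamc1*, *Itga6*, *Itga7*, *Itgad* and *Itgb3* were among those not in it. Over windows that run from 250 bases before to 50 after the start, 8 of 14 held a GC box on either strand, against 35.7% of 32851 promoters. The *Lama5* promoter held 4 GC boxes, that of *Itga5* 2, that of *Lamb1* 2 and that of *Itgb1* 1. Those of *Lamb3* and *Lamb2* held none, so the 4 printed are not typical of all members in this. A direct repeat of the kind that PPARγ and RXR bind, AGGTCA followed by any 1 base and AGGTCA again, on either strand, was in 0 of the 14 and in 0.0396% of all promoters. The half-site AGGTCA alone, which lies inside the repeat, was in 0 of the 14 and in 16.3% of all. The TEAD motif GGAATG, on either strand, was in 3 of 14 and in 14.7% of all. These are matches of letters in a short window and were tested for nothing.

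Of the 19 tested members, 4 were higher and 8 lower in K382Q cells at an adjusted p under 0.05 (limma with Benjamini-Hochberg adjustment over all tested genes). Among all tested genes, 11.1% were called higher and 36.9% lower, or 48.1% in either direction against 12 of 19 members. None of the 19 passed the adjusted p together with a fold change over 2, the study's threshold for differentially expressed genes (DEGs), which 3.88% of all genes passed. The study applied this threshold with DESeq2 to counts, and here it was applied with limma to TPM. With median-ratio scaling or quantile normalization, 1 member passed it. This was *Lamb3*, at a log2 fold change of 1.0 with median-ratio scaling (adjusted p = 0.000155, limma). Without rescaling, 12 members had an unadjusted p under 0.05, and these are those called. With a fold change over 1.5 in place of 2, and again without rescaling, *Lamb3* and *Itgad* passed, as did 12.1% of all genes. With median-ratio scaling *Itgad* was at a log2 fold change of -0.53 and no longer reached that fold. *Itga7* then did, at 0.72 in place of 0.57. The groups did not overlap in 14 of the 19 members, and in 57.0% of all genes. The median log2 fold change of the 19 was -0.14, and that of all genes was -0.14 too. Scaling each library by the median ratio of its genes moved the median of all genes to 0.004, a shift of over 0.1. The share of all genes called lower then became 20.4% and that called higher 19.9%, and of the members 4 were higher and 6 lower.

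**Figure D1:**
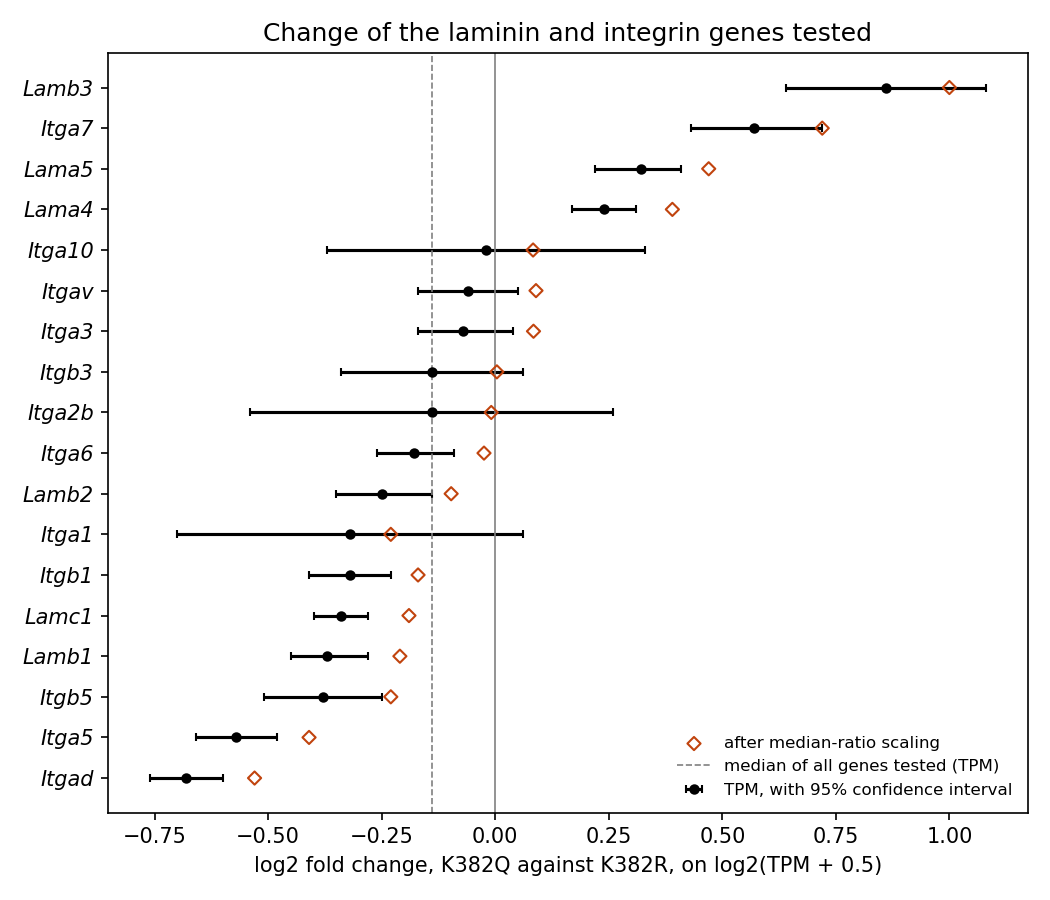
Log2 fold change of 18 tested laminin and integrin genes between K382Q and K382R cells (x axis, on log2(TPM + 0.5)), with one gene per row. Black points with bars are TPM with the 95% confidence interval of limma, open diamonds are values after median-ratio scaling, and the dashed line is the median of all genes at -0.14. *Lamb3* at 0.86 and *Itgad* at -0.68 lie at the ends.

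Among the α chains, which carry the main integrin-binding domain of the trimer, the 2 that were expressed were both higher in K382Q cells. Of all tested genes, 11.1% were higher (19.9% with median-ratio scaling), and the groups did not overlap in 57.0%. *Lama4* (ENSMUSG00000019846.12, chr10:38841511-38986184, plus strand, GRCm39), the α chain typical of vessel and fat basement membrane, was at 111.9, 109.8 and 109.0 TPM in K382Q cells and 93.91, 93.82 and 91.81 TPM in K382R cells. Every library of K382Q cells was above every library of K382R cells. Its mean was 110.2 ± 1.5 against 93.2 ± 1.19 (SD, n = 3 each), a log2 fold change of 0.24 (SE 0.0294, 95% confidence interval 0.17 to 0.31, adjusted p = 0.000358, limma), or 0.39 with median-ratio scaling. *Lama5* (ENSMUSG00000015647.10, chr2:179818166-179867652, minus strand, GRCm39), a widely expressed α chain of mature basement membranes, was at 31.41, 32.36 and 31.72 TPM in K382Q cells and 25.79, 24.92 and 25.56 TPM in K382R cells. The groups were again apart, with a log2 fold change of 0.32 (SE 0.0405, interval 0.22 to 0.41, adjusted p = 0.000435). *Lama1*, of early embryonic basement membranes, *Lama2*, of muscle and nerve, and *Lama3*, of epithelia, stayed below 0.5 TPM in every library, with highest values of 0.157, 0.164 and 0.0916 TPM.

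The main β and γ chains went the other way. *Lamb1* (ENSMUSG00000002900.18, chr12:31315233-31379643, plus strand, GRCm39), the common β chain, was at 185.7, 191.4 and 176.5 TPM in K382Q cells and 235.1, 242.2 and 236.9 TPM in K382R cells. All 3 libraries of K382Q cells lay below those of K382R cells, and the log2 fold change was -0.37 (SE 0.0359, interval -0.45 to -0.28, adjusted p = 0.000116), or -0.21 with median-ratio scaling. *Lamc1* (ENSMUSG00000026478.15, chr1:153094668-153208532, minus strand, GRCm39), the γ chain shared by most laminins, was at 178.1, 178.5 and 179.1 TPM in K382Q cells and 223.9, 230.4 and 224.1 TPM in K382R cells. The groups did not overlap and the log2 fold change was -0.34 (SE 0.0266, interval -0.40 to -0.28, adjusted p = 3.87e-05), or -0.19 with median-ratio scaling. *Lamb2*, the β chain of muscle, nerve and kidney basement membranes, was at 24.6 ± 0.256 TPM in K382Q cells and 29.3 ± 0.991 TPM in K382R cells, a log2 fold change of -0.25 (adjusted p = 0.00245). That call was lost with median-ratio scaling, where the log2 fold change was -0.0971 (adjusted p = 0.121). *Lamc3* did not pass the minimum, at 0.202 TPM at most.

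*Lamb3*, the β chain of the laminin that anchors epithelia, had the largest change on the log2 scale of the 19 and was a minor β chain. It was at 10.11, 12.49 and 10.45 TPM in K382Q cells and 5.889, 6.023 and 5.557 TPM in K382R cells. The lowest library of K382Q cells was above the highest of K382R cells. The log2 fold change was 0.86 (SE 0.0941, interval 0.64 to 1.08, adjusted p = 0.000207) and 1.00 with median-ratio scaling. The study also took *Lamb3* to qPCR. Its α chain partner in that laminin, *Lama3*, was below the minimum. The span of *Lamb3* (ENSMUSG00000026639.19, chr1:192890007-193026186, plus strand, GRCm39) holds 2 expressed genes on the other strand. One is *G0s2*, which encodes a lipolysis inhibitor, at 1036 ± 49.6 TPM in K382Q cells and 693.8 ± 23.0 TPM in K382R cells (log2 fold change 0.58). The other is *Hsd11b1*, which encodes a glucocorticoid-activating enzyme, at 27.1 ± 1.42 and 11.8 ± 0.306 TPM (log2 fold change 1.17, adjusted p = 4.14e-06). Whether the authors counted by strand is not given in the sources used here, so reads of the 3 genes may not be told apart where they overlap, and the part of these neighbours was not tested. On the strand of *Lamb3* itself lies *Gm37691*, at 2.18 ± 0.163 and 1.93 ± 0.407 TPM, whose part was not tested either. The coverage listed for *Lamb3* was 2.05 to 5.07 reads per base, which was 11.9 to 15.1% of what its FPKM would give at the highest coverage-to-FPKM ratio of the library.

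**Figure D2:**
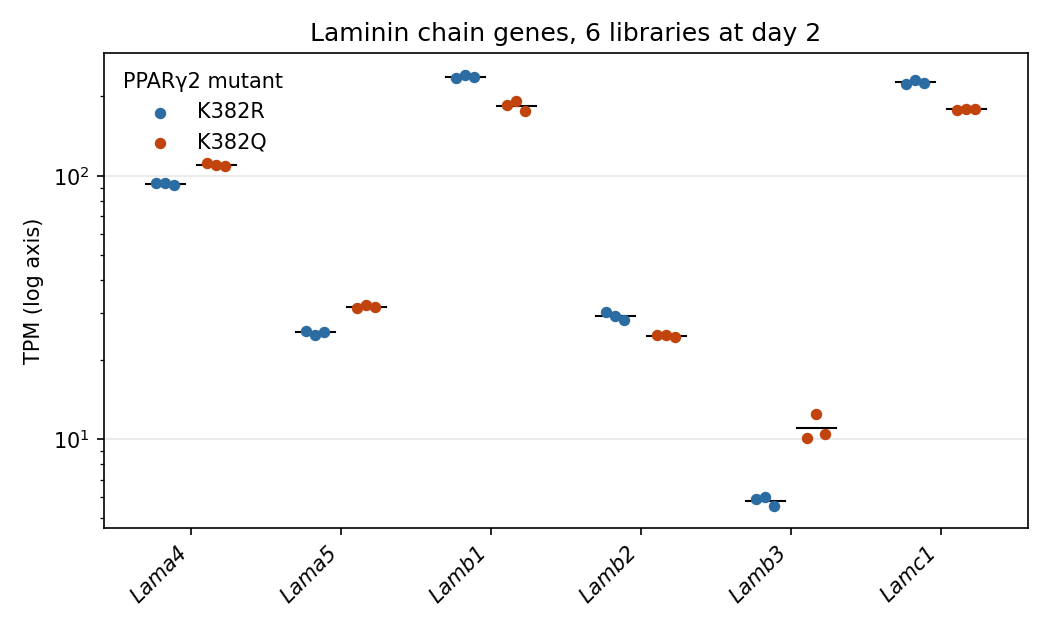
TPM of 6 tested laminin chains in the 6 libraries (y axis, log scale), with K382R libraries in blue, K382Q libraries in red and a black bar at each mean. *Lama4*, *Lama5* and *Lamb3* are higher in all 3 K382Q libraries, and *Lamb1*, *Lamb2* and *Lamc1* are lower in all 3.

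Within a library, ratios of chains do not depend on how libraries are scaled. The summed α chains were at 142.3 ± 1.35 TPM in K382Q cells and 118.9 ± 1.15 TPM in K382R cells, and the summed γ chains at 195.3 ± 0.489 and 244.3 ± 2.88 TPM. The ratio of α to γ chains was 0.737, 0.728 and 0.720 in K382Q cells and 0.493, 0.481 and 0.486 in K382R cells, with no overlap. The exact two-sided permutation test gave p = 0.1, the smallest that 3 against 3 libraries can give. The ratio of β to γ chains was 1.13 ± 0.0454 in K382Q cells and 1.12 ± 0.00270 in K382R cells, with overlapping libraries. The ratio of *Lamb1* to *Lamc1* was 1.03 ± 0.0439 and 1.05 ± 0.00368, which also overlapped. By coverage per base, the β to γ ratio was 0.788 ± 0.0257 in K382Q cells and 0.775 ± 0.000787 in K382R cells. That of *Lamb1* to *Lamc1* was then 0.6835 ± 0.0251 and 0.6819 ± 0.00224. Both overlapped again, but whether β or γ chains had the higher level depends on the measure. With 3 against 3 libraries no such difference could pass the threshold. Within the β chains, the share of *Lamb3* was 5.00 ± 0.442% in K382Q cells and 2.13 ± 0.0684% in K382R cells, and that of *Lamb1* 83.8 ± 0.338% and 87.1 ± 0.433%. By coverage per base *Lamb3* held a smaller share, 1.22 ± 0.0576% against 0.457 ± 0.0399%, again without overlap. Within the α chains, *Lama4* held 77.5 ± 0.406% in K382Q cells and 78.4 ± 0.418% in K382R cells, a difference of -0.936 percentage points without overlap.

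On the receptor side, 1 of 12 tested integrin subunits was higher and 5 were lower in K382Q cells, shares near those of all genes (11.1% and 36.9%). The laminin-binding α subunits, which pair with the β1 subunit that *Itgb1* encodes, were all expressed. *Itga7* (ENSMUSG00000025348.11, chr10:128769645-128794155, plus strand, GRCm39), best known as the laminin receptor of muscle, was at 43.81, 49.81 and 44.32 TPM in K382Q cells and 32.52, 29.70 and 29.95 TPM in K382R cells. Every library of K382Q cells was higher, with a log2 fold change of 0.57 (SE 0.0622, interval 0.43 to 0.72, adjusted p = 0.000201). Of 8 muscle and Schwann cell markers, *Des* alone passed the minimum, at 5.00 ± 0.475 TPM in K382Q cells and 3.20 ± 0.398 TPM in K382R cells, and the sum of the 8 was 5.62 to 6.66 against 3.63 to 4.25 TPM with 3 of them (*Myog*, *Sox10* and *Myf5*) at 0 throughout. The part of these markers in the result was not tested.

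*Itga6*, the α subunit with the highest TPM of the 3, was at 63.82, 61.71 and 61.82 TPM in K382Q cells and 72.71, 68.64 and 70.63 TPM in K382R cells. The groups were apart, with a log2 fold change of -0.18 (SE 0.0362, interval -0.26 to -0.09, adjusted p = 0.00489). That call was lost with median-ratio scaling, where the log2 fold change was -0.0248 (adjusted p = 0.605), close to the median gene. *Itga3* was at 34.8 ± 1.59 and 36.4 ± 0.356 TPM, with overlapping libraries and a log2 fold change of -0.07 (interval -0.17 to 0.04, adjusted p = 0.265). The summed laminin-binding subunits were at 143.2 ± 3.02 TPM in K382Q cells and 137.8 ± 3.28 TPM in K382R cells, which overlapped (exact permutation p = 0.2). Within that sum, the share of *Itga7* was 31.1, 34.0 and 31.1% in K382Q cells and 23.0, 22.0 and 21.9% in K382R cells. The share of *Itga6* was 43.6 ± 1.64% against 51.3 ± 0.445%, so the sums overlapped while their makeup did not. The level of *Itga6* relative to the other 2 depends on the measure. By coverage per base, *Itga6* held 10.9 ± 0.534% and 13.5 ± 0.191% of the 3 subunits, *Itga7* 36.2 ± 1.57% and 26.3 ± 0.940%, and *Itga3* 52.9 ± 1.55% and 60.1 ± 1.10%, all without overlap and in the direction seen by TPM.

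The α subunits of receptors that read the RGD motif of fibronectin and vitronectin were led by *Itga5*, the α subunit of the classical fibronectin receptor. *Itga5* (ENSMUSG00000000555.9, chr15:103252713-103275190, minus strand, GRCm39) was at 70.34, 75.59 and 75.55 TPM in K382Q cells and 106.9, 110.7 and 111.1 TPM in K382R cells. Every library of K382Q cells was lower, with a log2 fold change of -0.57 (SE 0.0394, interval -0.66 to -0.48, adjusted p = 2.16e-05), and -0.41 with median-ratio scaling. *Itgav*, the α subunit of vitronectin receptors, was at 31.0 ± 0.808 and 32.4 ± 1.5 TPM, with overlapping libraries and an interval of -0.17 to 0.05 (adjusted p = 0.345). *Itga2b*, the platelet subunit, was at 3.07 ± 0.654 and 3.43 ± 0.654 TPM (adjusted p = 0.543). *Itga8* was at 0.0955 TPM at most. As a share of these subunits, *Itga5* held 68.4 ± 1.74% in K382Q cells and 75.3 ± 0.713% in K382R cells, without overlap. The ratio of laminin-binding to RGD-binding α subunits was 1.33, 1.35 and 1.30 in K382Q cells and 1.01, 0.917 and 0.920 in K382R cells, also without overlap (exact permutation p = 0.1). By coverage per base it was 0.652 ± 0.00995 and 0.434 ± 0.0196, lower in both groups and again without overlap.

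The β subunits that passed the minimum were 3 of 6, or 3 of 8 with those of leukocytes. *Itgb1* (ENSMUSG00000025809.16, chr8:129412135-129459681, plus strand, GRCm39), the common partner of the laminin, collagen and fibronectin receptors, was the member with the highest TPM, at 235.4, 215.7 and 225.9 TPM in K382Q cells and 275.4, 281.8 and 288.6 TPM in K382R cells. The groups did not overlap, with a log2 fold change of -0.32 (SE 0.0384, interval -0.41 to -0.23, adjusted p = 0.000324). With median-ratio scaling it was -0.17 (adjusted p = 0.00622). *Itgb5*, a partner of *Itgav* in vitronectin receptors, was at 36.46, 41.93 and 40.45 TPM in K382Q cells and 52.33, 52.03 and 50.23 TPM in K382R cells. It was lower in every library of K382Q cells, with a log2 fold change of -0.38 (SE 0.0558, interval -0.51 to -0.25, adjusted p = 0.000951), or -0.23 with median-ratio scaling. *Itgb3*, the other partner of *Itgav*, was at 6.01 and 6.67 TPM (interval -0.34 to 0.06, adjusted p = 0.227). *Itgb4*, the laminin receptor subunit of epithelial hemidesmosomes, reached 0.518 TPM in 1 library and was not tested, and *Itgb6* and *Itgb8* were at 0.0143 and 0.0638 TPM at most.

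The ratio of *Itga5* to *Itgb1* was 0.328 ± 0.0264 in K382Q cells and 0.389 ± 0.00396 in K382R cells, with no overlap, and that of *Itgb5* to *Itgav* was 1.28 ± 0.122 and 1.59 ± 0.102. By coverage per base the latter was 0.281 ± 0.0283 and 0.354 ± 0.0172, so which of the 2 genes had the higher level depends on the measure, while the groups were apart by both. Among β subunits *Itgb1* held 83.1 ± 1.36% and 82.8 ± 0.725% of the sum, which overlapped.

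**Figure D3:**
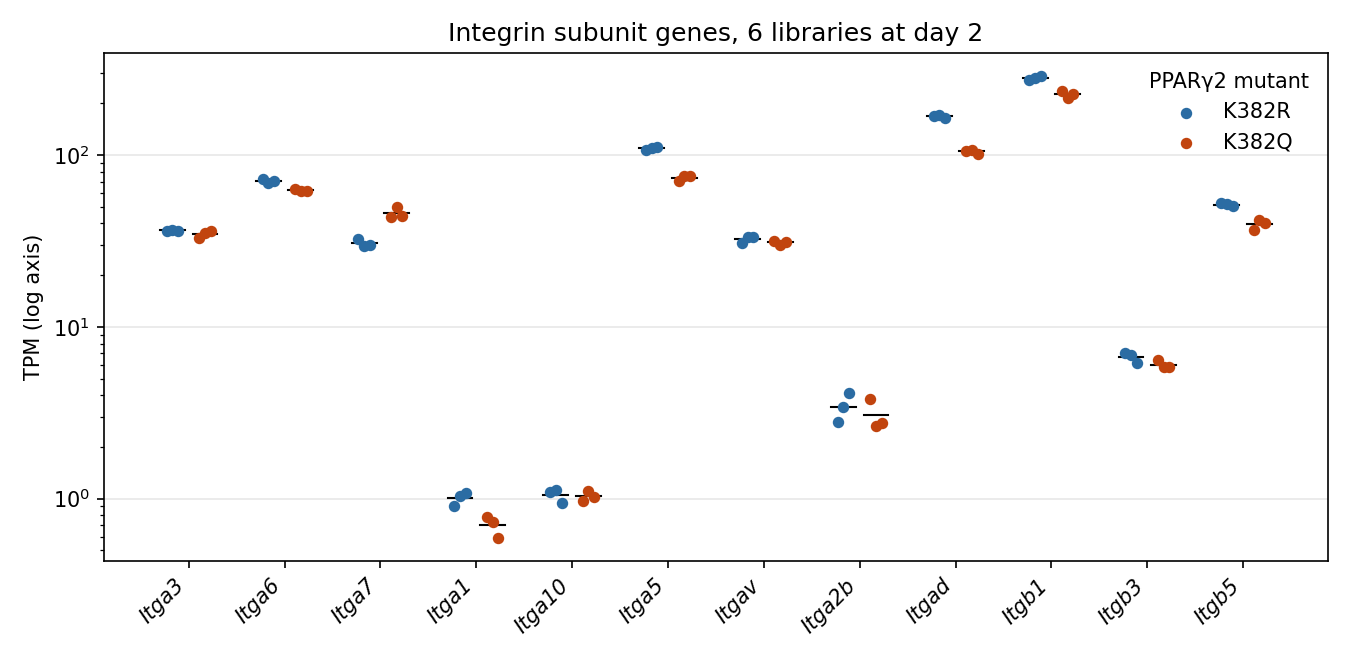
TPM of the 12 tested integrin subunits in the 6 libraries (y axis, log scale), with K382R libraries in blue, K382Q libraries in red and a black bar at each mean. *Itga7* is higher in all 3 K382Q libraries, and *Itga5*, *Itgad*, *Itgb1*, *Itgb5* and *Itga6* are lower in all 3. *Itga1* is also lower in all 3 but was not called.

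The collagen-binding α subunits were near the lower end. *Itga1* was at 0.784, 0.736 and 0.593 TPM in K382Q cells and 0.905, 1.03 and 1.08 TPM in K382R cells, with no overlap but an adjusted p of 0.143 (log2 fold change -0.32, interval -0.70 to 0.06). The gene *Pelo*, at 39.2 ± 3.02 and 47.5 ± 2.17 TPM, lies inside its span. So does *Gm49395*, on the same strand as *Itga1*, at 1.34 ± 0.276 and 2.56 ± 0.467 TPM (log2 fold change -0.73, adjusted p = 0.0092, limma). The part of these neighbours in the value of *Itga1* was not tested. *Itga10* was at 0.972, 1.10 and 1.01 TPM in K382Q cells and 1.09, 1.12 and 0.945 TPM in K382R cells, which overlapped (adjusted p = 0.924). *Itga2* and *Itga11* did not reach 0.5 TPM in any library. *Itga4* and *Itga9*, which bind VCAM-1 and tenascin among others, were at 0.00984 and 0.0922 TPM at most.

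Among the integrins of leukocytes, 1 of 7 passed the minimum. *Itgad* (ENSMUSG00000070369.14, chr7:127753548-127822988, plus strand, GRCm39), the αD subunit of macrophages, was at 105.8, 107.5 and 101.9 TPM in K382Q cells and 169.5, 172.1 and 164.0 TPM in K382R cells, the largest fall of the 19. All libraries of K382Q cells lay below those of K382R cells, with a log2 fold change of -0.68 (SE 0.0342, interval -0.76 to -0.60, adjusted p = 4.62e-06). Its partner *Itgb2*, the β2 subunit without which αD is not placed on the cell surface, was at 0.243 TPM at most, and *Itgal*, *Itgam*, *Itgax* and *Itgb7* at 0.188, 0.0333, 0.414 and 0.411 TPM at most. *Itgae* reached 0.5 TPM in 2 libraries only, both of K382Q cells. Of 10 leukocyte markers, 7 were below the minimum and *Adgre1*, *Cd3e* and *Tyrobp* were among those at 0 in all 6 libraries. *Ptprc* was at 0.00430 ± 0.00745 TPM in K382Q cells and at 0 in K382R cells, and the markers summed to 11.7 to 12.8 against 13.3 to 16.5 TPM. Most of that sum was *Cd14*, at 7.64 ± 0.606 TPM in K382Q cells and 9.64 ± 0.771 TPM in K382R cells (log2 fold change -0.32, adjusted p = 0.0203), and *Cd68*, at 4.08 ± 0.614 and 4.14 ± 0.967 TPM. No leukocyte marker was called lower with FPKM, median-ratio scaling, quantile normalization, no filter or the replicate block. The same held without K382Q replicate 2 or K382R replicate 2. Without K382R replicate 1, 2 leukocyte markers were called lower and 1 was a DEG. The part of these markers was not tested. The span of *Itgad* also holds *Cox6a2*, a subunit of cytochrome c oxidase of muscle and brown fat, on the other strand. *Cox6a2* was at 55.0 ± 1.16 TPM in K382Q cells and 33.9 ± 3.11 TPM in K382R cells, the opposite direction to *Itgad*. Of the other genes inside the span, *Gm44850* was at 1.54 ± 0.323 and 3.34 ± 0.290 TPM. Their part in the result was not tested.

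By mean TPM over the 6 libraries the order of the 18 members described here was, from the top, *Itgb1*, *Lamb1*, *Lamc1*, *Itgad*, *Lama4*, *Itga5*, *Itga6*, *Itgb5*, *Itga7*, *Itga3*, *Itgav*, *Lama5*, *Lamb2*, *Lamb3*, *Itgb3*, *Itga2b*, *Itga10* and *Itga1*. The order within each group differed from this in places. In K382Q cells *Lama4* was above *Itgad*, *Itga7* above *Itgb5* and *Lama5* above *Itgav*. In K382R cells *Itga5* was above *Lama4*, *Itga3* and *Itgav* above *Itga7*, *Lamb2* above *Lama5* and *Itgb3* above *Lamb3*. By the coverage listed per base of the gene, *Itga6* had rank 13 and *Itgb5* rank 14 of the 19 tested. Their listed coverage was 9.69 to 9.88% and 13.9 to 14.1% of what their FPKM would give at the highest ratio, against 93.3 to 93.5% for *Itgb1*. It was also well below that of *Itgb1* for others, such as *Itga2b* (26.5 to 37.6%), *Itga7* (43.7 to 44.1%), *Lama4* (49.9 to 50.05%) and *Lamb1* (57.6 to 57.9%). By coverage *Lamc1* had rank 2, above *Lamb1* at rank 3, and *Itga3* had rank 7. Levels of members relative to each other, and the order above, therefore depend on the measure. This is most so for *Itga6*, *Itgb5* and *Lamb3*. The comparison of the mutants uses the same gene in both groups.

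**Figure D4:**
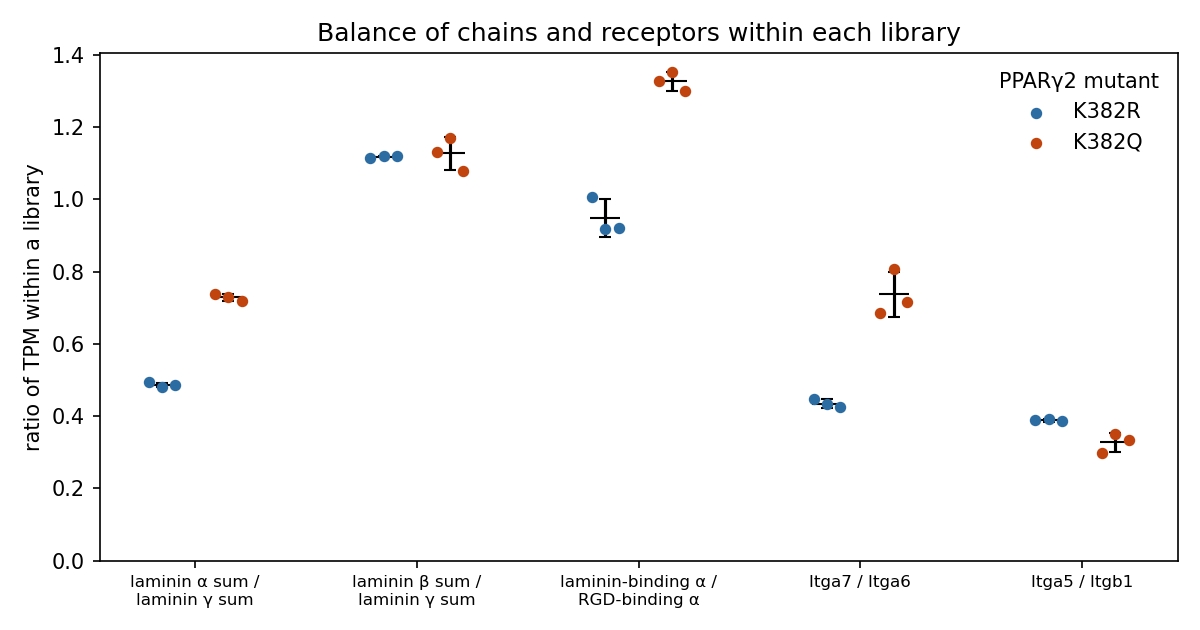
Ratios of TPM within each library (y axis, starting at 0) for laminin chain sums, integrin α classes and pairs of integrin genes, with 3 K382R libraries in blue and 3 K382Q libraries in red. Black bars are the mean and SD of each group. The α to γ ratio of laminins is 0.728 in K382Q and 0.487 in K382R cells, while the β to γ ratio overlaps.

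The genes that work with laminins and integrins were read from 4 lists of such genes. Among 14 basement membrane partners, 11 were tested, and 10 were lower and 0 higher in K382Q cells, where 36.9% of all genes were lower and 11.1% higher. Their median change was -0.46 on the log2 scale, against -0.14 for all genes. The most abundant were the type IV collagen chains *Col4a1*, at 804.2 ± 28.4 against 945.9 ± 13.1 TPM (log2 fold change -0.23, adjusted p = 0.000721), and *Col4a2*, at 404.9 ± 16.6 against 506.2 ± 7.32 TPM (-0.32, adjusted p = 0.000204). *Ntn4*, a netrin that binds laminin, was the only DEG, where 3.88% of all genes are DEGs, at 0.262 ± 0.189 against 1.45 ± 0.329 TPM (log2 fold change -1.37, adjusted p = 0.00234). All 3 K382Q libraries were under the minimum of 0.5 TPM, so *Ntn4* was tested only through the group where it was high, and its call supports nothing about the list. *Smoc2*, at 0.397 ± 0.135 against 1.15 ± 0.371 TPM, passed mainly through K382R cells too. Both are in the counts and the median above. With a pseudocount of 1 or with FPKM there were 0 DEGs in this list. There were 2 with a pseudocount of 0.1 or without K382R replicate 2. With median-ratio scaling 7 of the 11 were lower and 1 higher, against 20.4% and 19.9% of all genes. Without rescaling, leaving out single libraries gave 7 to 10 lower.

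The laminin receptors outside the integrin family, with the tetraspanins that bind integrins, gave 3 higher and 8 lower of 15 tested, with a median log2 fold change of -0.17. Among all genes 11.1% were higher and 36.9% lower, with a median of -0.14. With median-ratio scaling 3 of the 15 were higher and 6 lower, against 19.9% and 20.4% of all genes. *Dag1*, which encodes the dystroglycan that binds the laminin α chain, was higher, at 164.6 ± 1.47 against 130.2 ± 0.825 TPM (log2 fold change 0.34, adjusted p = 3.92e-05). It was named after its values were seen. *Sdc4* (0.41) and *Sdc3* (0.28) were the others called higher, while *Sdc1* (-1.0) and *Sdc2* (-0.59) were among the 8 lower. The 2 DEGs, where 3.88% of all genes are DEGs, were both lower, and over the alternatives there were 1 to 3. They were *Bcam*, which encodes a receptor of laminin α5, at 1.52 ± 0.265 against 4.91 ± 0.840 TPM (-1.42, adjusted p = 0.000217), and *Mcam*, a receptor of laminin α4, at 7.45 ± 0.601 against 16.8 ± 2.07 TPM (-1.12, adjusted p = 7.21e-05). *Cd63* and *Cd151*, the tetraspanins with the highest mean TPM over the 6 libraries, were at 580.4 and 140.9 TPM in K382Q cells and 738.9 and 163.8 TPM in K382R cells, with log2 fold changes of -0.35 and -0.22 (adjusted p = 3.42e-05 and 0.00252). *Cd9* was above *Cd151* in K382R cells, at 117.8 ± 1.96 against 174.3 ± 2.62 TPM (log2 fold change -0.56).

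Ligands of integrins other than laminins had the lowest median change of the 4 lists. Of 16 listed, 15 were tested and *Vtn* was at 0 in every library. In K382Q cells, 11 were lower, 8 of them DEGs, and 1 (*Mfge8*) was higher at a log2 fold change of 0.14 (adjusted p = 0.0328). Among all genes 36.9% were lower, 11.1% higher and 3.88% DEGs. The higher count was 0 without K382Q replicate 2, without K382R replicate 1 and without K382R replicate 3, and also with no filter, no intensity trend or coverage per base. Median-ratio scaling gave 2 higher and 10 lower, as did quantile normalization. Of all genes, 19.9% were higher and 20.4% lower with the first, and 19.1% and 21.0% with the second. Without rescaling, the median change of the list was -1.27. *Postn*, the matricellular protein periostin, fell from 543.4 ± 22.5 TPM in K382R cells to 141.8 ± 1.89 TPM in K382Q cells (log2 fold change -1.93, adjusted p = 1.99e-07). *Ccn2* had the largest fall of the list on the log2 scale, from 44.3 ± 3.09 to 6.86 ± 0.493 TPM (-2.61, adjusted p = 4.28e-07). The other DEGs were *Ltbp1*, *Thbs1*, *Ccn1*, *Icam1*, *Tnc* and *Spp1*, with log2 fold changes of -2.17, -1.59, -1.42, -1.40, -1.28 and -1.27. *Fn1*, fibronectin and the ligand of the receptor with *Itga5*, was at 192.8 ± 6.82 against 251.3 ± 4.38 TPM, a log2 fold change of -0.38 (adjusted p = 7.27e-05).

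Of 33 tested adaptors and regulators of integrins, 4 were higher and 21 lower in K382Q cells, against 11.1% and 36.9% of all genes, with a median of -0.24. The 5 DEGs, where 3.88% of all genes are DEGs, were all lower, and there were 3 after quantile normalization or median-ratio scaling. Among the 5 were *Dab2*, an endocytic adaptor of integrins, the paxillin relative *Tgfb1i1*, *Kank1* and *Actn1*, with log2 fold changes of -2.13, -1.5, -1.14 and -1.13. *Actn4* and *Tns1*, with the list's highest mean TPM over the 6 libraries, were at -0.56 (adjusted p = 4.14e-06) and 0.34 (adjusted p = 8.00e-05). *Flna*, which was above *Tns1* in K382R cells, was at -0.47. Those called higher were *Tns1*, *Lims2*, *Ptk2b* and *Cd47*, but the higher count was 2 without K382Q replicate 2 or without K382R replicate 1. With median-ratio scaling 6 were higher and 11 lower, against 19.9% and 20.4% of all genes.

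**Figure D5:**
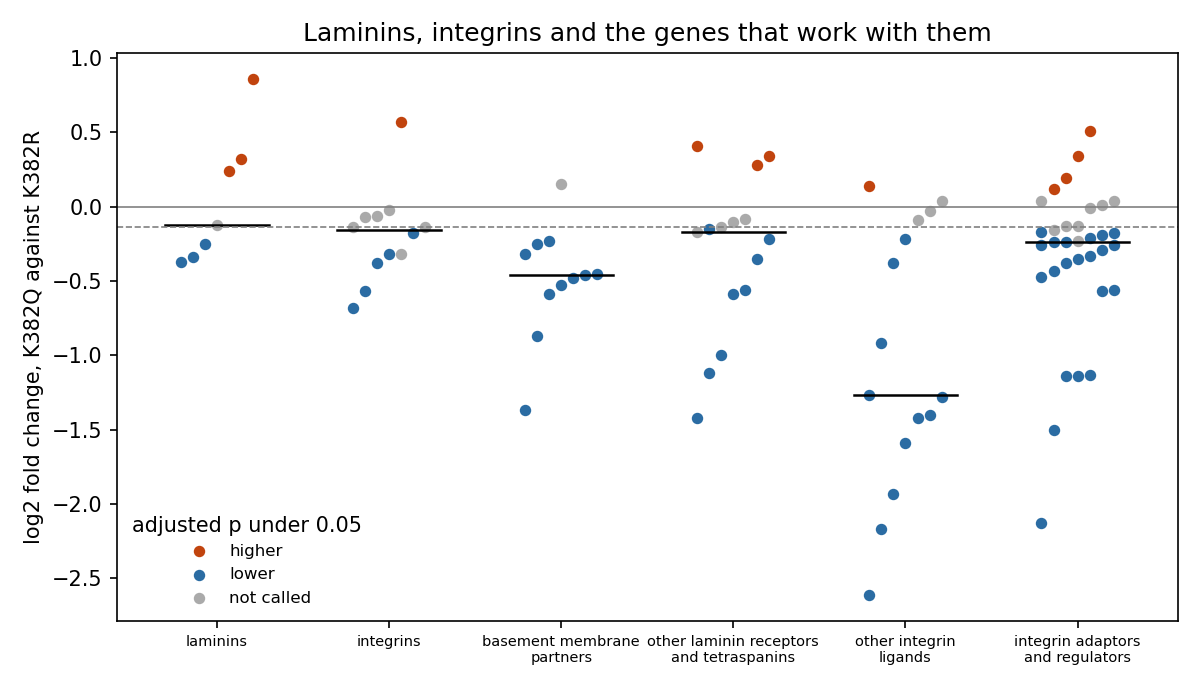
Log2 fold change of K382Q against K382R cells (y axis) for the tested laminin and integrin genes and for 4 lists of genes that work with them, with one point per gene. Red points are called higher and blue points lower at an adjusted p under 0.05 (limma), grey points are not called, black bars are medians and the dashed line is the median of all genes. The median of the other integrin ligands is -1.27 and that of the laminins -0.12.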

How the data were processed

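Libraries prepared with the NEBNext Ultra kit were read as 150-bp pairs. Per the labels and the study's methods, the authors aligned the reads to GRCm39 with HISAT2 and quantified genes with StringTie, and the annotation release and strand setting are not given in the sources used here. The authors deposited, for each library, coverage per base (a signal without normalization), FPKM and TPM, both normalized by transcript length and library. Repeated entries of a gene ID, at most 5 in a library, were summed. Counts were not analysed here. The mutants were compared on log2(TPM + 0.5) in limma (version 3.58.1, R 4.3.3), with a variance trend on intensity, over genes that reached 0.5 TPM in 3 or more libraries, and p-values were adjusted by Benjamini-Hochberg. Fold changes are on that scale, which understates the change of low genes. Shares and ratios were compared by exact two-sided permutation over libraries (scipy 1.17.1).

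The depth is that of the aligned length, taken as the highest ratio of coverage to FPKM in a library, and precision is that of 3 replicates. A few genes are not reported here. All other members were named, with library values for those called at a fold over 1.5 and the leading gene of each class, and, of the other lists, DEGs and the 2 most abundant genes, and some values beyond this rule were added after they were seen. Members and lists were chosen with earlier results of these data known. Endothelial markers summed to 1.70 to 2.28 TPM in K382Q cells and 1.71 to 1.94 TPM in K382R cells, and epithelial ones, almost all *Krt19*, to 373.9 to 398.3 and 413.7 to 426.5 TPM. Alternatives were the pseudocount (1, 0.1), the filter, FPKM, scaling, the variance model, array weights, a replicate block, each library left out and, added after seeing the data, coverage per base. The fit was tested on simulated data. Promoters came from RefSeq, build GRCm38.p6. Libraries shared at most 0.0583% identical values. Python 3.11.15, pandas 2.3.3, numpy 2.4.6 and matplotlib 3.10.9 were used.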

Additional observations from a re-analysis of the deposited data

How the results depend on the processing

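Of the 12 members called, 10 kept their direction and their call in all 17 alternatives. The exceptions were *Itga6* and *Lamb2*. The call of *Itga6* was lost with FPKM (-0.092, adjusted p = 0.0733, limma), with median-ratio scaling (-0.0248) and with quantile normalization (-0.0201), and that of *Lamb2* with median-ratio scaling (-0.0971) and quantile normalization (-0.0837, adjusted p = 0.176). The number of members lower ranged from 6 to 9, and 4 were higher throughout. Members past the DEG threshold were 0, but 1 (*Lamb3*) with median-ratio scaling and 1 with quantile normalization. With a fold change over 1.5 and no rescaling there were 2 (*Lamb3* and *Itgad*).

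Several members that were not called changed sign. With FPKM, *Itga10*, *Itga3* and *Itgav* were at 0.0245, 0.0162 and 0.0216. With median-ratio scaling, *Itga10*, *Itga3*, *Itgav* and *Itgb3* were at 0.0833, 0.0842, 0.0897 and 0.00353, and with quantile normalization at 0.0625, 0.0938, 0.0979 and 0.00978. Leaving out single libraries, *Itga10* ranged from -0.0704 to 0.0126. *Itga1* became called without the intensity trend (adjusted p = 0.0226). The causes were not tested. The pairing of replicate numbers was checked by the correlation of deviations, which was -0.0177, 0.0507 and 0.0223 for the same numbers, so the numbers were not taken to pair samples. With the replicate block, 8 members were lower, 4 higher and 0 DEGs. The intervals of *Itga1*, *Itga10* and *Itga2b*, which had the lowest mean TPM of the 19, were the widest. By coverage per base, the difference in the share of *Lamb3* among β chains was 0.764 percentage points in place of 2.87.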
